A study of Mus musculus with 6 samples.

Results

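The regions described here are the stretches of open chromatin that the authors' table assigns to protein-coding genes of 3 developmental signalling pathways, Wnt, Fgf and Notch, in mouse NIH/3T3 fibroblasts. They were chosen by gene name alone (the Wnt, Fzd, Dkk, Sfrp, Dvl, Fgf, Fgfr, Notch, Jag and Hes families with Hey1, Hey2, Heyl, Axin1, Axin2, Ctnnb1, Lrp5 and Lrp6), at any distance from the transcription start site (TSS), and not by any measured value. This gave 77 of the 63430 regions in the table, belonging to 50 genes: 45 regions of 29 Wnt pathway genes, 18 regions of 12 Fgf genes and 14 regions of 9 Notch pathway genes. The assay was ATAC-seq: Tn5, a transposase, puts sequencing adapters into accessible DNA. All 6 libraries came from NIH/3T3 cells, a mouse embryonic fibroblast line, with a knock-in of Cas13d, an enzyme that is led to RNA by a guide and cuts it. Cells of 3 libraries had received, by transfection, a guide RNA to Actg1 (cytoplasmic gamma-actin) mRNA. Those of the other 3 had received one to GFP as the control. Each library started from 25000 cells. The series design calls the libraries of a group biological replicates without saying whether they came from separate cultures. Each p-value reflects only how far these samples scatter, pooled largely over regions of similar signal, and that scatter may be technical. The study asked what part mRNA decay plays in transcriptional adaptation, the response in which decay of one mRNA goes with altered transcription of related genes.

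Wnt proteins are secreted lipid-bearing ligands that bind Frizzled (Fzd) receptors together with Lrp5 or Lrp6; Dishevelled (Dvl) carries the signal to a complex built on Axin, which otherwise has beta-catenin (Ctnnb1) destroyed. Some Dkk proteins bind Lrp5 and Lrp6, and Sfrp proteins bind Wnt ligands, so that these modulate the pathway outside the cell. Fgf ligands act through receptor tyrosine kinases (Fgfr) and the Ras pathway, and fibroblasts are both a source and a target of them. Notch receptors are cut after binding Jagged (Jag) or Delta ligands on a neighbouring cell, and the freed intracellular part works with the DNA-binding protein Rbpj to switch on repressors of the Hes and Hey families.

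The values are read counts per region that the authors had scaled and rounded, called signal here. The 6 columns summed to between 7673745 and 7831438, and the reads behind them were estimated at 5675571 to 9525252 per library. Libraries 1 and 2 of the GFP guide could not be told apart beyond sampling noise and count as 1 sample, so the GFP guide has n = 2 and the Actg1 guide n = 3 in every mean ± SD; for this reason all 6 library values are given for the regions the results turn on. Correlations of log2 signal were 0.972 to 0.981 between libraries of one group and 0.900 to 0.917 across the groups. The targeted gene could not serve as a check of the labels, since regions of Actg1 were not analysed here. Of 11 fibroblast markers 9 had a region in the table, among them Vim, Fn1, Pdgfra and Col1a1, against 0 of 4 endothelial, 1 of 4 epithelial, 2 of 4 haematopoietic, 1 of 4 skeletal muscle and 2 of 4 neuronal markers. Of the 21 fibroblast marker regions 11 were called, 4 higher and 7 lower, beside 41.3% of all tested regions and 33.8% of those of protein-coding genes. The falls had log2 fold changes of -1.30 and -0.31 (S100a4), -0.36 and -0.81 (Pdgfrb), -0.77 (Col1a2), -0.54 (Col1a1) and -0.59 (Col3a1). The rises had 0.70 (Col1a1), 0.47 and 0.53 (Col1a2) and 0.58 (Col3a1). No region of Vim, Fn1, Pdgfra or Thy1 was called. Among the 8 regions of other markers 3 were called, those of Krt8 2707 bp upstream (98, 107 and 104 against 33, 45 and 50, log2 fold change -1.28, adjusted p = 8.56e-08), Cd68 (56, 56 and 42 against 112, 100 and 91, 1.04, adjusted p = 5.44e-07) and Tubb3 1215 bp upstream (53, 62 and 62 against 73, 80 and 85, 0.40, adjusted p = 0.0301). Their part in the results below was not tested. ATAC-seq of a bulk culture cannot tell fewer cells with an open region from a region less open in every cell.

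Across the 3 pathways, regions were called about as often as at other protein-coding genes, and in both directions. A region was tested where 3 or more libraries had a signal of 10 or more, which 76 of the 77 member regions had, and called at a Benjamini-Hochberg adjusted p under 0.05 in limma fitted over all 61327 tested regions. With the Actg1 guide 13 member regions were higher and 12 lower, together 25 of 76 or 32.9%. The share was 41.3% over all tested regions (20.6% higher and 20.7% lower) and 33.8% over the 15012 tested regions of protein-coding genes (16.3% higher and 17.5% lower). The members' share lay beside that of other coding-gene regions and is not a result about these pathways. Their median log2 fold change (log2FC, Actg1 guide over GFP guide) was -0.02 against -0.01 over all regions, and their median absolute log2FC was 0.20, against 0.17 for regions of protein-coding genes. Changes of at least 2-fold were called in 7 of the 76 member regions, 1 of which, in Sfrp4, passed the filter only through the Actg1 guide libraries. The 7 had mean signals of 9.67 to 62.7. The median of the mean signal was 103.5 over members and 188 over coding-gene regions, and its part in these calls was not tested. Over regions of coding genes 3.71% had a called change of at least 2-fold and over all regions 12.2%. Of the 7, 2 lay within 1 kb of the TSS, where 0.995% of coding-gene regions did so, and 5 farther away, where 9.05% did. The libraries of the 2 groups did not overlap in 29 of the 76, where 50.8% of all tested regions and 44.6% of coding-gene regions did not overlap (42.8% within 1 kb of the TSS and 48.1% farther away).

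By pathway, 6 Wnt regions were higher and 8 lower of 44, 3 Fgf regions were higher and 3 lower of 18, and 4 Notch regions were higher and 1 lower of 14. Over coding-gene regions 16.3% were higher and 17.5% lower. The counts by role below rest on 2 to 15 tested regions each. They stand beside the same shares and are not results about a role. The median log2FC values were -0.05, 0.06 and 0.13. Summed over the 14 Notch pathway regions, signal was 4103, 4136 and 4099 in GFP guide libraries 1 to 3 and 4718, 4525 and 4571 in Actg1 guide libraries 1 to 3. The Wnt sum was 8082, 8159 and 8007 with the GFP guide and 7662, 7548 and 7562 with the Actg1 guide. Fgf sums overlapped, at 2321, 2269 and 2265 against 2313, 2410 and 2295. The sums of the Notch and Wnt members did not overlap between the groups. These sums were not tested, and strong regions weigh most in them. All 4 Notch rises were at Hes1 and Hes7, among them 742, 731 and 772 against 942, 911 and 930 at Hes1. In the Wnt sum the Wnt10b region alone went from 758, 719 and 725 to 459, 476 and 489. The separate sums are therefore not a result about whole pathways. Members within 1 kb of the table's TSS were called in 10 of 38 (7 higher, 3 lower) and those farther away in 15 of 38 (6 higher, 9 lower). Of coding-gene regions in the same distance classes 31.2% (12.9% higher, 18.3% lower) and 38.8% (22.9% higher, 15.9% lower) were called. By RefSeq starts some called members change class. The Hes7 region at 2046 bp lies at -548 bp, the Hes1 region at 338 bp at -1311 bp and the Axin2 region at 335 bp at 2856 bp.

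**Figure D1:**
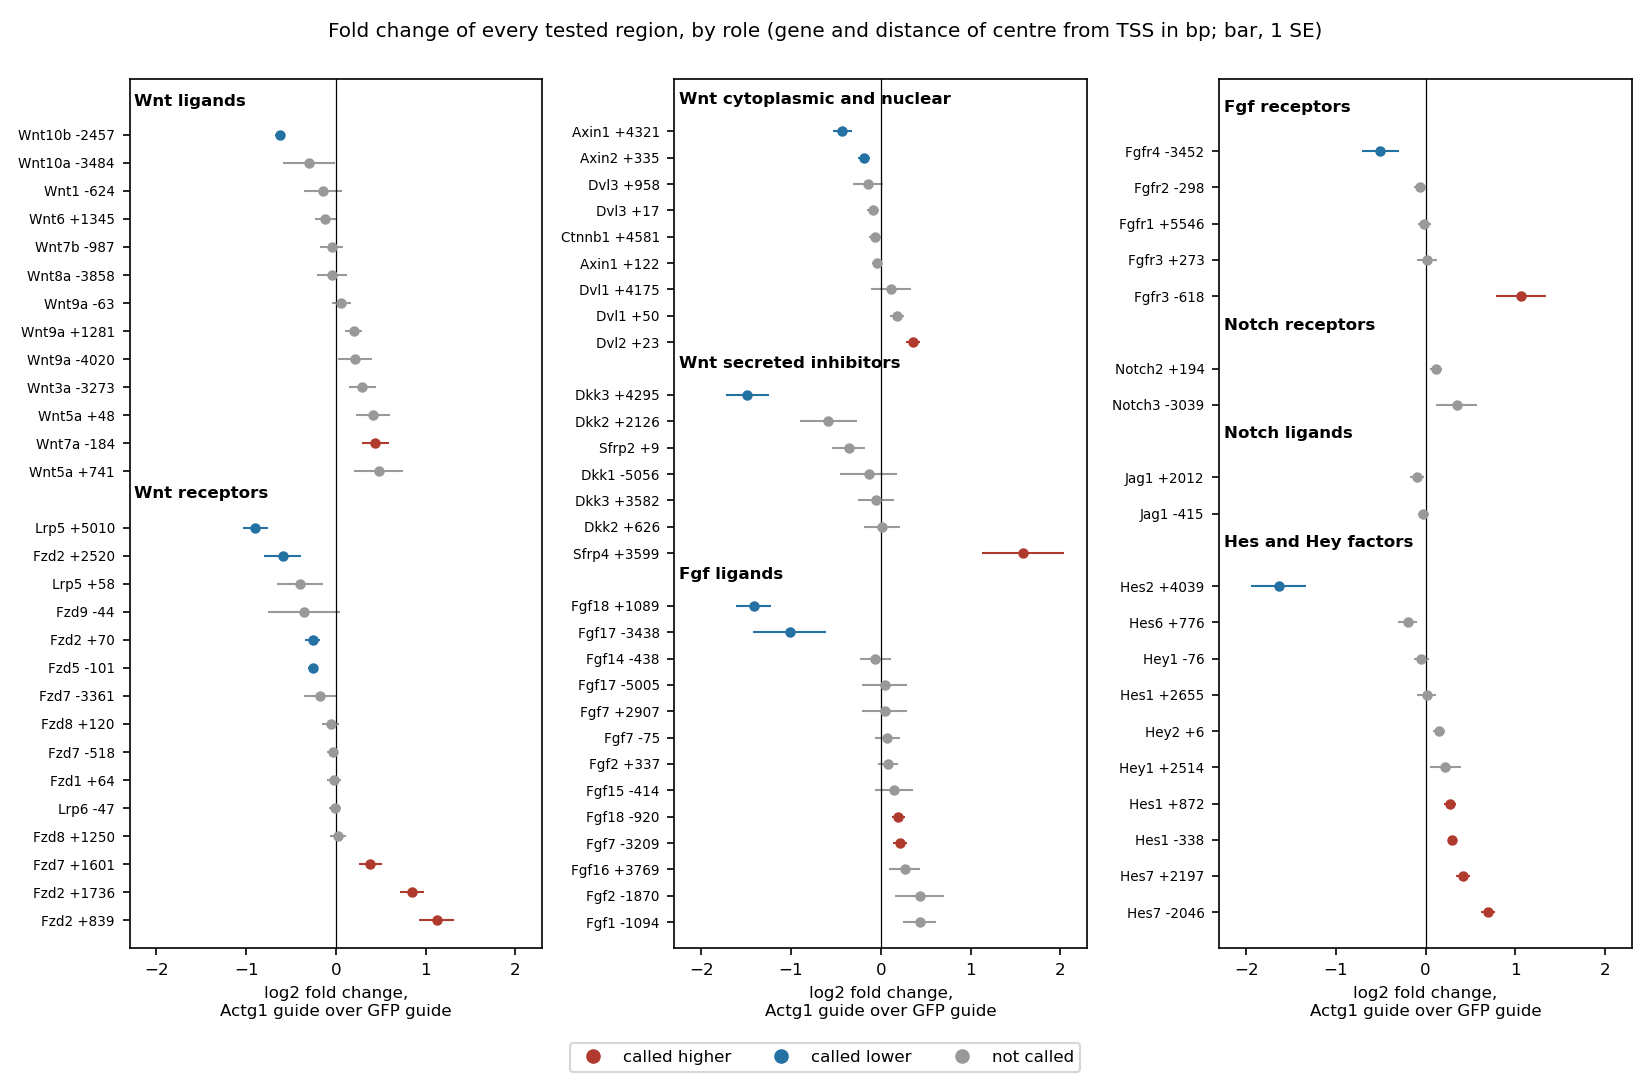
Log2 fold change (Actg1 guide over GFP guide) of the 76 tested regions of Wnt, Fgf and Notch pathway genes, grouped by role. Each label gives the gene and the distance of the region's centre from the TSS in bp (minus, upstream), bars are 1 SE from limma, and 13 regions in red were called higher and 12 in blue lower.

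Of the 25 calls, 13 were kept under each of the 16 other settings tried, 6 higher and 7 lower: Hes1 (the region 338 bp upstream), both regions of Hes7, Dvl2 and the Fzd2 regions at 839 and 1736 bp among the rises, and Wnt10b, Lrp5, Dkk3, Hes2, Axin1, the Fgf18 region at 1089 bp and the Fzd2 region at the TSS among the falls. Leaving out GFP guide library 3, which leaves 1 GFP guide sample, ended 11 of the 25 calls; all 25 kept their direction. The values without single libraries stand beside each region below.

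**Figure D2:**
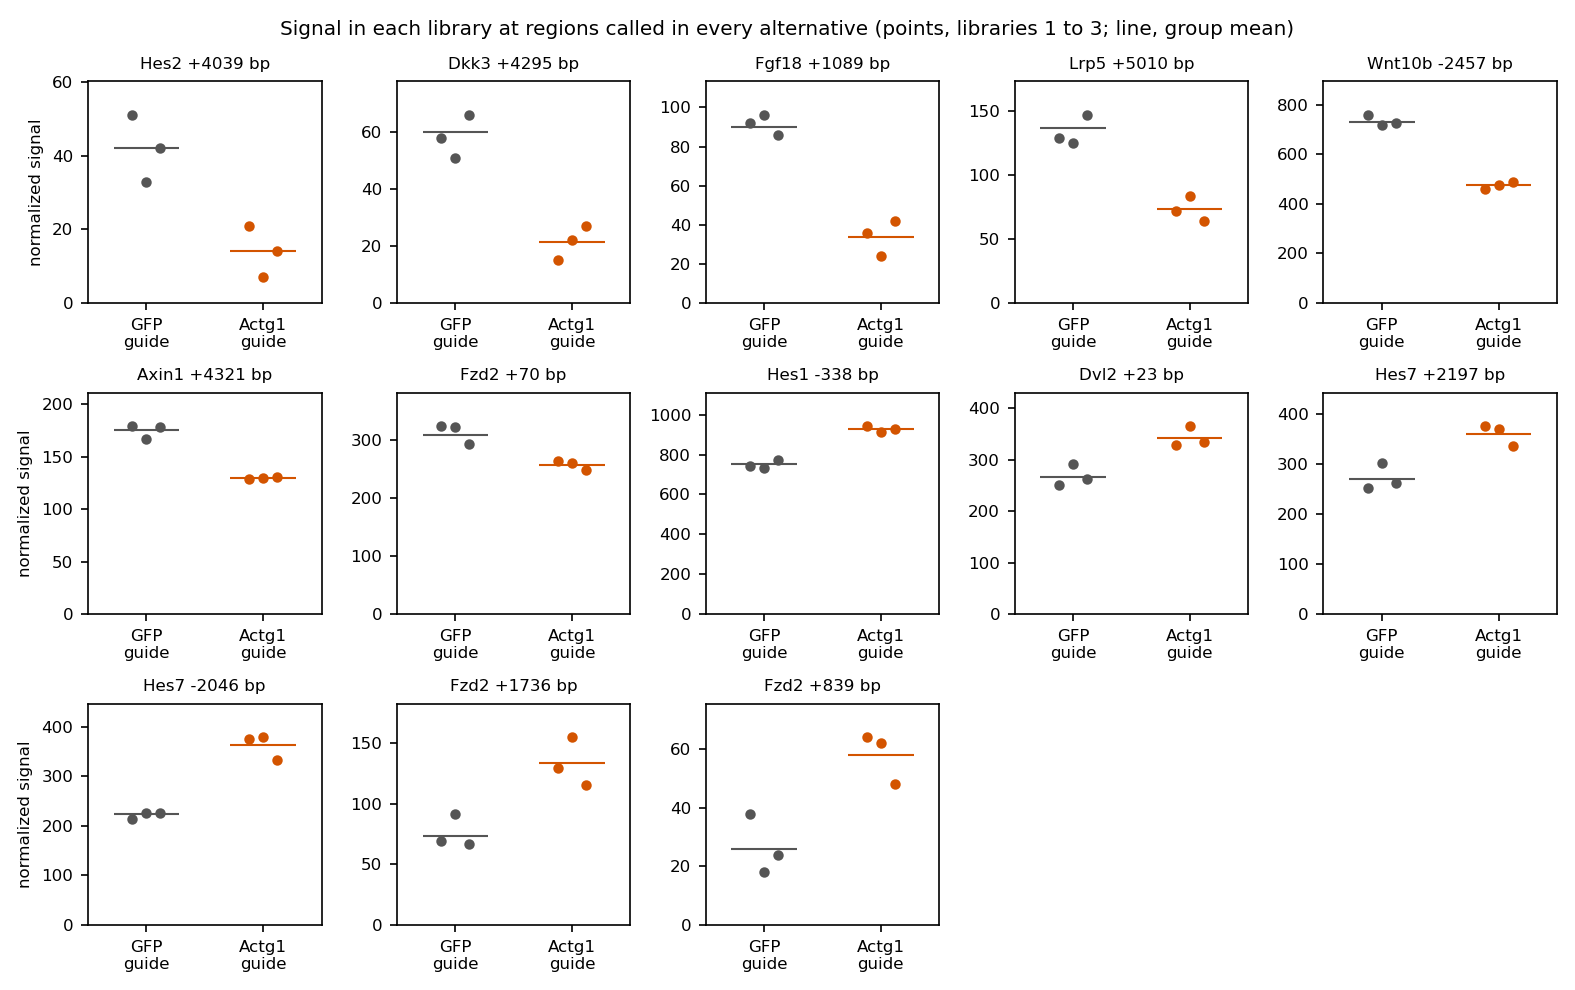
Normalized signal in each of the 6 libraries at the 13 member regions called under every setting, ordered from the largest fall to the largest rise. Points are libraries 1 to 3 of each group and lines the group means used in the fit; no panel has overlapping groups, from Hes2 (GFP guide mean 42, Actg1 guide mean 14) to the Fzd2 region at 839 bp (26 and 58).

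Among promoters of member genes that RefSeq gives for the same build (GRCm38.p6, the assembly that mm10 denotes), 31 of the 50 genes matched, and for 19 of them the 250 bases before the start overlapped a deposited region of that gene. The start is that of the transcript in the RefSeq promoter table, which can differ from the outer bound of the RefSeq gene. The 4 shown here are those whose overlapping region was called. All are rich in CpG dinucleotides, which are in capitals and number 24 in Axin2, 32 in Fzd5, 13 in Dvl2 and 34 in Wnt7a, against a median of 6 over all 32851 promoter windows of that length; the member windows had a median of 20. Axin2 (chr11:108920099-108920348, plus strand) and Fzd5 (chr1:64737751-64738000, minus strand) lay in regions that fell, Dvl2 (chr11:70000342-70000591, plus strand) and Wnt7a (chr6:91411354-91411603, minus strand) in regions that rose.
Axin2: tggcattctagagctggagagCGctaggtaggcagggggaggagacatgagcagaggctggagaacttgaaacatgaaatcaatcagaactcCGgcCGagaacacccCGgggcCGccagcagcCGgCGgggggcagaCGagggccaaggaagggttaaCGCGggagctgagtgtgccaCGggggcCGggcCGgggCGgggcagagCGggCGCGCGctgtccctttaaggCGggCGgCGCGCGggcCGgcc
Fzd5: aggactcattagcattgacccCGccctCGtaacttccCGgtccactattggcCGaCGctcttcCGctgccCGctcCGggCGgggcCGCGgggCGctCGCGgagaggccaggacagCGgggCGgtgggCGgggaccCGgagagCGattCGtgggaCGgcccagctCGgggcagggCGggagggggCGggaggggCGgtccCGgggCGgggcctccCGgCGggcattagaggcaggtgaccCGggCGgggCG
Dvl2: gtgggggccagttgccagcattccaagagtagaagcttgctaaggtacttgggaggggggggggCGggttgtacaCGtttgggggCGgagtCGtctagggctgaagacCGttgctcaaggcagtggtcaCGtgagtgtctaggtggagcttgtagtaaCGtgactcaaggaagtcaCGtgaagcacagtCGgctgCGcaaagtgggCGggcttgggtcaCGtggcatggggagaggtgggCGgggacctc
Wnt7a: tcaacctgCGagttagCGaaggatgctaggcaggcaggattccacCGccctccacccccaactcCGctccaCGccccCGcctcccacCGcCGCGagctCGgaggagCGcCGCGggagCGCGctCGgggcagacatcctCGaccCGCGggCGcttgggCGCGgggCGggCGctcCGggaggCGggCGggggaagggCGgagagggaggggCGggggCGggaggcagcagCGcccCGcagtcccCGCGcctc

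Wnt ligand genes had 13 tested regions, of which 1 was higher and 1 lower. The fall was the most certain change of the whole set by adjusted p. A region 2457 bp upstream of Wnt10b, a ligand known for holding back fat cell formation and favouring bone (chromosome 15, 98780168 to 98781046), had signals of 758, 719 and 725 in GFP guide libraries 1 to 3 and 459, 476 and 489 in Actg1 guide libraries 1 to 3. The groups stood far apart, with every GFP guide library above every Actg1 guide library. The mean fell from 732 ± 9.55 (SD, n = 2) to 475 ± 15.04 (SD, n = 3), a log2FC of -0.62 (SE 0.0587, adjusted p = 1.81e-11). This region lies outside the gene body, between Wnt10b (98770712 to 98778206 in RefSeq) and Wnt1 (98789857 to 98793830). With 832 signal units per kb under the GFP guide it was also the strongest Wnt ligand region per length. Its neighbour Wnt1, a ligand of brain patterning, had a weak region 624 bp upstream of its TSS with 33, 52 and 33 against 38, 30 and 34, a log2FC of -0.14 that did not pass (adjusted p = 0.631).

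Wnt7a, a ligand best known from limb and nervous system patterning, was the one ligand gene called higher. Its promoter region (chromosome 6, 91411119 to 91411975) had 66, 49 and 64 with the GFP guide and 70, 95 and 85 with the Actg1 guide. Groups were separate but only just, since 66 and 70 lie close together. The log2FC was 0.44 (SE 0.154, adjusted p = 0.0192), and the call ended without GFP guide library 2 or 3 (adjusted p = 0.0759 and 0.101) and without Actg1 guide library 2 or 3 (0.111 and 0.0671). A RefSeq lncRNA, Gm30437, overlaps the same region. Both regions of Wnt5a, the main non-canonical ligand of fibroblasts, missed the threshold: the one at its TSS had 55, 38 and 36 against 46, 61 and 59 (log2FC 0.42, adjusted p = 0.0708) and the one 741 bp inside had 0.47 (adjusted p = 0.162). The other regions, of Wnt10a, Wnt3a, Wnt6, Wnt7b, Wnt8a and Wnt9a, had log2FC values of -0.30 to 0.29 and none passed. The Wnt6 region lies 18895 bp downstream of the RefSeq gene's start, although the table places it 1345 bp from a TSS.

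Wnt receptor genes held 7 called regions of 15, 3 higher and 4 lower, and 4 of the 7 belong to Fzd2. The share called over coding-gene regions was 33.8%. Fzd2, a Frizzled receptor prominent in mesenchymal cells, had 4 regions close together on chromosome 11 that changed in opposite directions. At its TSS (102604080 to 102604851) signal was 324, 322 and 294 with the GFP guide and 264, 260 and 248 with the Actg1 guide, so it fell with no overlap (log2FC -0.26, SE 0.0813, adjusted p = 0.00894). The next region, 839 bp inside the gene (102605049 to 102605420), had 38, 18 and 24 against 64, 62 and 48. It rose 2.17-fold (log2FC 1.12, SE 0.199, adjusted p = 1.29e-05). At 1736 bp (102605767 to 102606496) values were 69, 92 and 67 against 130, 155 and 116, a rise of 0.84 on the log2 scale (SE 0.133, adjusted p = 1.85e-06). The last, at 2520 bp (102606784 to 102607048), had 53, 43 and 54 against 39, 28 and 34. It fell by 0.59 on the log2 scale (SE 0.204, adjusted p = 0.0168), and that call ended without GFP guide library 1 or 3 (adjusted p = 0.0555 and 0.204) or Actg1 guide library 2 (0.0669). Fzd2 therefore lost signal at its start and at its far region and gained it at the pair of regions between them.

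The difference between regions of one gene was tested directly. For the 20 member genes with more than 1 tested region, each of 26 other regions was set against the region nearest to the TSS. The exact two-sided permutation test cannot go below 0.1 with 2 against 3 samples, and 8 of the 26 pairs reached that value. The share of pairs at that value over all genes was not computed, so this count is not a result about these genes. A limma fit to the log2 ratios of such pairs in all genes, chosen after seeing the data, called 22.2% of 3672 ratios and 4 of the 26. In Fzd2 the regions at 839 and 1736 bp differed from the one at the TSS by 1.38 (SE 0.155, adjusted p = 0.00414) and 1.10 (SE 0.159, adjusted p = 0.00691) on the log2 scale. The remaining 2 ratios were those of Fgf18 and Dkk3, described below.

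**Figure D3:**
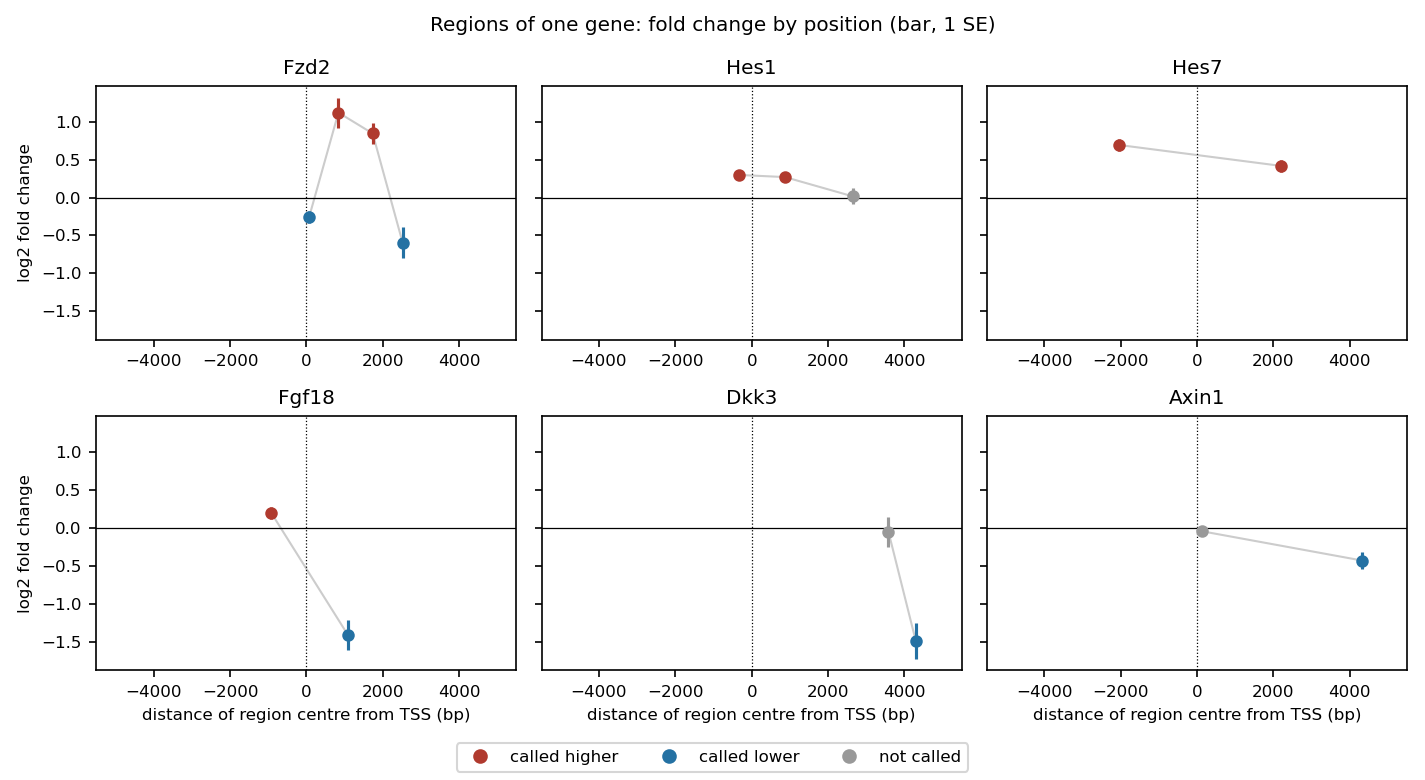
Log2 fold change of each tested region against the distance of its centre from the TSS in bp, for 6 member genes with at least 2 regions; bars are 1 SE. Fzd2 runs from -0.26 at the TSS over 1.12 and 0.84 to -0.59, Fgf18 from 0.20 upstream to -1.41 downstream, while both regions of Hes7 lie above 0.

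Lrp5, a co-receptor that bone cells depend on, fell at a region 5010 bp inside the gene (chromosome 19, 3681320 to 3681787). Its values were 129, 125 and 147 with the GFP guide and 72, 84 and 64 with the Actg1 guide, with a wide gap between groups. Mean signal went from 137 ± 14.1 (SD, n = 2) to 73.3 ± 10.1 (SD, n = 3), a log2FC of -0.90 (SE 0.138, adjusted p = 1.14e-06). The small region at the Lrp5 TSS had 27, 33 and 29 against 18, 22 and 27 and did not pass (log2FC -0.40, adjusted p = 0.211), and the 2 regions were not shown to differ from each other (difference -0.49, exact permutation p = 0.3, adjusted p = 0.188). The sister co-receptor Lrp6 had 393, 407 and 406 against 395, 410 and 392 at its promoter. Its groups overlapped fully, at a log2FC of -0.01 (SE 0.0679, adjusted p = 0.887).

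Fzd5 had the strongest region of the receptor group. This promoter (chromosome 1, 64737303 to 64738401) went from 733, 743 and 783 to 663, 603 and 647, with no overlap. Its log2FC was -0.25 (SE 0.0556, adjusted p = 0.000259), and -0.21 without GFP guide library 3, where the call ended (adjusted p = 0.0647). Fzd7 was higher at a region 1601 bp inside the gene, with 100, 85 and 89 against 121, 131 and 105 (log2FC 0.38, SE 0.128, adjusted p = 0.0142). That call ended without GFP guide library 3, Actg1 guide library 1 or Actg1 guide library 2 (adjusted p = 0.156, 0.0596 and 0.076). The main Fzd7 promoter region held 510, 600 and 552 against 562, 504 and 555, a log2FC of -0.04 that did not pass (adjusted p = 0.67). The third Fzd7 region, 3361 bp upstream, did not pass either (log2FC -0.18). None of the regions of Fzd1, Fzd8 and Fzd9 passed, with log2FC values of -0.36 to 0.02.

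Inside the cell, 1 region of the Dvl, Axin and Ctnnb1 genes was higher and 2 were lower of 9. The promoter of Dvl2, which relays the signal from Frizzled (chromosome 11, 70000367 to 70000868), had 251, 292 and 262 with the GFP guide and 329, 365 and 335 with the Actg1 guide. Every Actg1 guide library was above every GFP guide library, and the mean rose 1.28-fold (log2FC 0.36, SE 0.0775, adjusted p = 0.00021). The gene Phf23 lies 356 bp from this region. For Dvl1 and Dvl3 no region passed; the Dvl1 promoter had 275, 269 and 236 against 296, 284 and 282 (log2FC 0.18, adjusted p = 0.077).

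Both Axin genes, which encode the scaffold of the destruction complex, had a region that fell. Axin2, itself a target of beta-catenin and often used as a readout of the pathway, had 440, 430 and 434 against 380, 387 and 377 at a region (chromosome 11, 108920073 to 108921295) that holds the promoter window shown and is centred 2856 bp after the outer RefSeq start of the gene. The libraries of each group lay close to one another and the groups were well apart. Its log2FC of -0.19 (SE 0.0675, adjusted p = 0.0225) lost its call without GFP guide library 3 (-0.19, adjusted p = 0.121) and under quantile normalization (-0.15, adjusted p = 0.0631). In Axin1 a region 4321 bp downstream (chromosome 17, 26142864 to 26143154) went from 179, 167 and 178 to 129, 130 and 131, a log2FC of -0.43 (SE 0.107, adjusted p = 0.00111). The region nearest the Axin1 TSS of the table had 690, 751 and 719 against 716, 649 and 733 (log2FC -0.04, adjusted p = 0.563). By RefSeq these regions are centred 7592 and 11792 bp after the start of the gene. The region of Ctnnb1, placed 4581 bp from a TSS by the table and 396 bp from the RefSeq start, had 393, 381 and 386 against 408, 350 and 355 and did not pass (log2FC -0.06, adjusted p = 0.527).

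Genes grouped as secreted inhibitors, by name alone and not by a shown function, had 7 tested regions, 1 higher and 1 lower. Dkk3, a divergent Dickkopf family member, lost signal at a region 4295 bp inside the gene (chromosome 7, 112154580 to 112154943): 58, 51 and 66 with the GFP guide and 15, 22 and 27 with the Actg1 guide. The Actg1 guide mean was 0.357 times that of the GFP guide on the fitted scale (log2FC -1.49, SE 0.236, adjusted p = 2.04e-06). A region of similar strength at 3582 bp had 50, 41 and 39 against 44, 46 and 33 and did not pass (log2FC -0.05, adjusted p = 0.861). The 2 neighbours differed by -1.43 on the log2 scale (SE 0.348, adjusted p = 0.0283; exact permutation p = 0.2). Sfrp4 was called higher at 3599 bp, with 1, 3 and 8 against 10, 22 and 14. These are among the lowest values of the set, and the region passed the filter only through the Actg1 guide libraries, so it had to differ; its call (log2FC 1.59, SE 0.461, adjusted p = 0.0049) ended without Actg1 guide library 2 (adjusted p = 0.076). The promoter of Sfrp2 had 73, 59 and 61 against 61, 53 and 37 (log2FC -0.36, adjusted p = 0.117). Dkk1 and the 2 tested Dkk2 regions had log2FC values of -0.58 to 0.01 and did not pass, and the third Dkk2 region, with 6 to 13 signal units, was not tested.

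Genes grouped as Fgf ligands, by name alone and not by a shown function, had 2 regions higher and 2 lower of 13. Fgf18, a ligand of skeletal growth, held one of each. At 1089 bp inside the gene (chromosome 11, 33146164 to 33146458) signal was 92, 96 and 86 with the GFP guide and 36, 24 and 42 with the Actg1 guide. The gap between groups was wider than either group's range, and the log2FC was -1.41 (SE 0.195, adjusted p = 1.34e-07). At 920 bp upstream (33147727 to 33148912) the larger region had 357, 325 and 303 against 370, 397 and 341, with overlapping groups. It was called higher (log2FC 0.20, SE 0.0767, adjusted p = 0.0356), but not without GFP guide library 2 or 3 (adjusted p = 0.0998 and 0.467; 0.11 on the log2 scale in the latter) nor without Actg1 guide library 1 or 2 (0.114 and 0.183). The regions differed from each other by -1.61 on the log2 scale (SE 0.281, adjusted p = 0.0102; exact permutation p = 0.1).

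Fgf7, the keratinocyte growth factor that mesenchymal cells supply to epithelia, was higher at a region 3209 bp upstream (chromosome 2, 126030996 to 126031901), with 272, 296 and 277 against 313, 315 and 349. The log2FC was 0.21 (SE 0.0781, adjusted p = 0.0255), and the call ended without GFP guide library 1 or 3 (adjusted p = 0.0699 and 0.193) or Actg1 guide library 3 (0.11). Its promoter region had 104, 105 and 93 against 82, 112 and 121 and its internal region 27, 29 and 22 against 24, 27 and 26, and neither passed (log2FC 0.07 and 0.04). All 3 Fgf7 regions lie within the RefSeq gene Fam227b. Fgf17 was lower at a weak region 3438 bp upstream, with 24, 14 and 17 against 10, 4 and 14. The groups met at 14, and the call (log2FC -1.02, SE 0.406, adjusted p = 0.0408) ended without GFP guide library 1 or 3 (adjusted p = 0.14 and 0.245) or Actg1 guide library 1 or 2 (0.0837 and 0.192; -0.56 on the log2 scale in the last). Its second region, 5005 bp upstream, overlaps Npm2 and had a log2FC of 0.04 (adjusted p = 0.91). Fgf2, the classical fibroblast growth factor, had 153, 149 and 125 against 135, 161 and 142 at its promoter, which did not pass (log2FC 0.08, adjusted p = 0.593). A small second Fgf2 region 1870 bp upstream had 24, 20 and 15 against 25, 28 and 22 (log2FC 0.43, adjusted p = 0.209). Fgf14, Fgf15 and Fgf16 had 1 region each, with log2FC values of -0.06 to 0.27, and none passed. Fgf1 missed the threshold narrowly, at 47, 49 and 41 against 67, 68 and 48 (log2FC 0.43, adjusted p = 0.0508).

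Fgf receptor genes had 1 region higher and 1 lower of 5, both weak. Fgfr3 rose at a short region 618 bp upstream (chromosome 5, 33720975 to 33721137), from 18, 18 and 12 to 42, 35 and 22. The log2FC was 1.07 (SE 0.278, adjusted p = 0.00184), and 0.79 without GFP guide library 3 and 0.87 without Actg1 guide library 1, where the call ended (adjusted p = 0.153 and 0.0514). At the Fgfr3 promoter itself values were 132, 130 and 138 against 126, 134 and 148, with a log2FC of 0.01 (adjusted p = 0.94). Fgfr4 was lower at a region 3452 bp upstream, with 43, 52 and 47 against 40, 28 and 32 (log2FC -0.51, SE 0.208, adjusted p = 0.0468). That call ended without GFP guide library 2 or 3 (adjusted p = 0.105 and 0.212), without Actg1 guide library 2 or 3 (0.138 and 0.092), with equal library totals (0.0565) and in voom on the estimated reads (0.0635). The region of Fgfr1, the main Fgf receptor of fibroblasts, had 354, 334 and 343 against 334, 352 and 333 and a log2FC of -0.02 (adjusted p = 0.88). Its centre is 5546 bp from the TSS of the table and 440 bp from the RefSeq start. The region assigned to Fgfr2, the strongest of the group, had a log2FC of -0.06 (adjusted p = 0.455), but it overlaps Ctbp2, which ends at 133124009 on chromosome 7, and its position relative to the RefSeq Fgfr2 start is -2856840 bp.

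Neither Notch receptors nor Notch ligands had a called region. The promoter of Notch2 (chromosome 3, 98013172 to 98014270) had 461, 438 and 392 with the GFP guide and 454, 452 and 459 with the Actg1 guide, a log2FC of 0.12 (adjusted p = 0.169). Notch3, a receptor of mural cells and fibroblasts, had 22, 26 and 27 against 31, 35 and 32 at a region 3039 bp upstream, where the groups did not overlap but the difference did not pass (log2FC 0.35, adjusted p = 0.236). Jag1, the Jagged ligand gene with regions here, had 508, 493 and 524 against 528, 468 and 515 upstream and 349, 338 and 330 against 331, 291 and 323 inside the gene (log2FC values -0.03 and -0.10, adjusted p = 0.778 and 0.324).

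The Hes and Hey genes encode repressors, some of which Notch switches on. They had 4 regions higher and 1 lower of 10, beside 16.3% higher and 17.5% lower over coding-gene regions. The 4 rises came from 2 genes. Hes1, the most widely expressed member of the family, had the region of highest signal in the Notch set 338 bp upstream of the table's TSS (chromosome 16, 30063622 to 30064470), with 742, 731 and 772 against 942, 911 and 930. It rose 1.23-fold (log2FC 0.30, SE 0.0489, adjusted p = 3.53e-06). A second region at 872 bp (30065084 to 30065427), which is centred at -102 bp from the RefSeq start of Hes1, had 420, 446 and 418 against 543, 503 and 495. It rose by a similar amount (log2FC 0.27, SE 0.0642, adjusted p = 0.000692), and the call ended without GFP guide library 3 (0.24, adjusted p = 0.0565). The third region, 2655 bp inside by the table, had 163, 146 and 169 against 157, 154 and 180 and a log2FC of 0.01 (adjusted p = 0.927). It differed from the first by -0.28, which did not pass (exact permutation p = 0.2, adjusted p = 0.188).

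Hes7, known as an oscillator of the somite clock, had its regions on either side of the TSS and both rose. The upstream one (chromosome 11, 69117687 to 69119028; 2046 bp from the TSS) had 214, 226 and 227 with the GFP guide and 375, 379 and 334 with the Actg1 guide, a 1.62-fold rise (log2FC 0.69, SE 0.0796, adjusted p = 2.38e-09). The downstream one (69122269 to 69122932) had 251, 302 and 261 against 375, 369 and 335 (log2FC 0.42, SE 0.077, adjusted p = 2.42e-05). In neither did the groups overlap. Other transcribed units share this stretch: a tRNA gene (n-TGgcc5, 69118794 to 69118864) lies inside the upstream region, and the downstream one overlaps the end of the RNA gene 9130213A22Rik and lies 550 bp from a further tRNA gene. The outer RefSeq bound of Hes7, 69118906, lies inside the upstream region. Their part in the change was not tested.

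Hes2 was lower at a region 4039 bp downstream of its TSS and outside the gene body (chromosome 4, 152162758 to 152163053), with 51, 33 and 42 against 21, 7 and 14. The values scatter widely within each group but do not overlap, and the log2FC was -1.64 (SE 0.31, adjusted p = 3.52e-05), the largest fall among the members. Hey2, a cardiovascular member of the family, had 359, 397 and 407 against 433, 437 and 432 at its promoter. Groups did not overlap, but the difference did not pass (log2FC 0.15, SE 0.0671, adjusted p = 0.078). Hey1 had 340, 339 and 306 against 331, 284 and 324 at its promoter and 52, 54 and 49 against 56, 65 and 58 inside the gene (log2FC values -0.05 and 0.22, adjusted p = 0.685 and 0.31). Hes6 had 171, 167 and 175 against 141, 170 and 140, a log2FC of -0.20 that did not pass (adjusted p = 0.137).

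The 250 bases before the RefSeq starts were searched on both strands for 4 short motifs. The Rbpj core GTGGGAA was present in 5.42% of all 32851 promoter windows and in those of 3 of the 31 matched member genes, Hes7, Hey2 and Wnt9a. The Tcf/Lef core CTTTGAT occurred in 3.21% of all windows and in 0 of the 31 genes. The N-box CACNAG, bound by Hes proteins, occurred in 36.7% of all windows and in 11 of the 31, and the AP-1 motif TGANTCA in 6.75% of all and in 1 of the 31, Dvl2. A match is a string of letters and not a shown binding site. The windows of Hey2 (chr10:30842784-30843033, minus strand), which lies in its deposited region, and of Hes7 (chr11:69120203-69120452, plus strand), which precedes a transcript start downstream of the outer RefSeq bound (69118906) and lies between the pair of regions that rose and in neither, are shown because they hold the Rbpj core in a Notch target family. The match is in capitals and begins 207 bases before the transcript start in Hey2 and 180 bases before it in Hes7.
Hey2: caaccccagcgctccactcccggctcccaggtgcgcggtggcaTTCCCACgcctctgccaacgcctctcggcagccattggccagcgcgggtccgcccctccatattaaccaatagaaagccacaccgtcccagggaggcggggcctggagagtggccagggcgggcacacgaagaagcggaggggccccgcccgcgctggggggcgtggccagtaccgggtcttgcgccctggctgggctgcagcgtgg
Hes7: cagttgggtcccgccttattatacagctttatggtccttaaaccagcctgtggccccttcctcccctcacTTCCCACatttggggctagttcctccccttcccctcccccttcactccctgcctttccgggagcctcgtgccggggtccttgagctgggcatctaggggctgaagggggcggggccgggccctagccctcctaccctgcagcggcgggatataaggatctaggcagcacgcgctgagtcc

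Further genes of the 3 pathways, 100 in all by name, were taken from fixed lists; 82 had a region and 119 regions were tested. Of these, 20 were higher and 16 lower, 30.3%, again beside the 33.8% of coding-gene regions. Other Wnt genes had 9 higher and 9 lower of 48, other Fgf genes 7 higher and 3 lower of 29, and other Notch genes 4 higher and 4 lower of 42. The median log2FC values were 0.07, 0.01 and -0.01.

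Among other Wnt genes, Wls, the carrier that takes Wnt ligands to the cell surface, fell at its promoter (chromosome 3, 159839361 to 159841331) from 531, 530 and 535 to 325, 372 and 365. That is a log2FC of -0.59 (SE 0.0694, adjusted p = 4.12e-09), with no overlap. Tcf7l2, a DNA-binding partner of beta-catenin, rose at 1965 bp inside the gene, from 118, 125 and 122 to 191, 170 and 161 (log2FC 0.51, adjusted p = 0.000182). Kremen2, a Dkk receptor, had 81, 101 and 96 against 73, 62 and 70 (log2FC -0.45, adjusted p = 0.0114). That call ended without GFP guide library 2 (adjusted p = 0.0519) or 3 (log2FC -0.41). The RefSeq lncRNA 9530082P21Rik overlaps the Kremen2 region. Rspo3, a Wnt enhancer, was at 16, 30 and 16 against 30, 32 and 28, and its call (log2FC 0.62, adjusted p = 0.0478) ended when any library but GFP guide library 2 was left out, at adjusted p = 0.0623 to 0.38, and after quantile and cyclic loess normalization (0.0577 and 0.0706).

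Among other Fgf genes, Fgfbp1, which releases Fgf ligands from the matrix, was higher at all 3 of its regions. The middle one, 1299 bp upstream, went from 83, 70 and 82 to 146, 141 and 137 (log2FC 0.83, SE 0.121, adjusted p = 4.67e-07). The weaker ones had log2FC values of 0.92 (4656 bp upstream, adjusted p = 0.00468) and 1.08 (1250 bp inside, adjusted p = 0.00736). Their values were 16, 11 and 18 against 27, 28 and 37, and 8, 6 and 15 against 27, 26 and 17. The last region passed the filter limit of 10 through the Actg1 guide libraries, where it was high. It lost its call without Actg1 guide library 1 or 2 (adjusted p = 0.0763 and 0.0602). Feedback and target genes of Fgf signalling did not share a direction. Etv4, an Ets factor induced by Fgf, rose from 304, 339 and 268 to 465, 504 and 440 at its promoter (chromosome 11, 101784490 to 101785591; log2FC 0.67, SE 0.0755, adjusted p = 1.36e-09). The RefSeq lncRNA Gm39392 overlaps this Etv4 region. Etv5, a relative of Etv4, had 1111, 1204 and 1162 against 1137, 1045 and 1081 and did not pass (log2FC -0.09, adjusted p = 0.0891). The inhibitors Spry2 (696, 748 and 718 against 638, 637 and 664) and Dusp6 (537, 502 and 538 against 468, 470 and 483) were lower at their promoters. The log2FC was -0.16 in both (adjusted p = 0.0179 and 0.036). The Spry2 call ended without GFP guide library 2 or 3 (adjusted p = 0.0602 and 0.109), without Actg1 guide library 1 (0.0518), and after quantile and cyclic loess normalization (0.0695 and 0.0633). That of Dusp6 ended without GFP guide library 1 or 3 (0.0992 and 0.228), without Actg1 guide library 1 or 2 (0.0791 and 0.0608), and under all 3 other scalings (0.0685 to 0.0895). Second regions of Spry2 and Dusp6 had log2FC values of 0.14 and 0.07, and Spry4 had -0.02; none of them passed.

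Among other Notch genes, a region 4743 bp inside Rbpj, the DNA-binding partner of Notch (chromosome 5, 53470743 to 53471047), fell from 63, 48 and 60 to 27, 23 and 30. Its log2FC was -1.09 (SE 0.21, adjusted p = 4.52e-05). Adam17 (37, 30 and 24 against 48, 34 and 49) and Dtx3 (135, 123 and 124 against 110, 95 and 95) had log2FC values of 0.59 and -0.34 (adjusted p = 0.0279 and 0.0253). The Dtx3 region overlaps the RefSeq lncRNA F420014N23Rik and lies 348 bp from the gene Pip4k2c. The Adam17 call ended without GFP guide library 2 or 3 (adjusted p = 0.0639 and 0.391) or Actg1 guide library 1 or 3 (0.138 and 0.128), and the Dtx3 call without GFP guide library 1 or 3 (0.0597 and 0.127) or Actg1 guide library 2 or 3 (0.069 and 0.0666). Without GFP guide library 3 the Adam17 log2FC was 0.35. Nrarp, a direct Notch target and feedback inhibitor, had 371, 354 and 367 against 390, 372 and 369 at its promoter and 91, 114 and 98 against 93, 100 and 87 farther upstream (log2FC values 0.05 and -0.10, adjusted p = 0.626 and 0.558). Among the fixed readout genes with regions, Hes1 and Etv4 were higher, Axin2, Spry2 and Dusp6 lower, and Hey1, Nrarp, Spry4 and Etv5 were not called; Lef1 and Nkd1 were not analysed here.

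**Figure D4:**
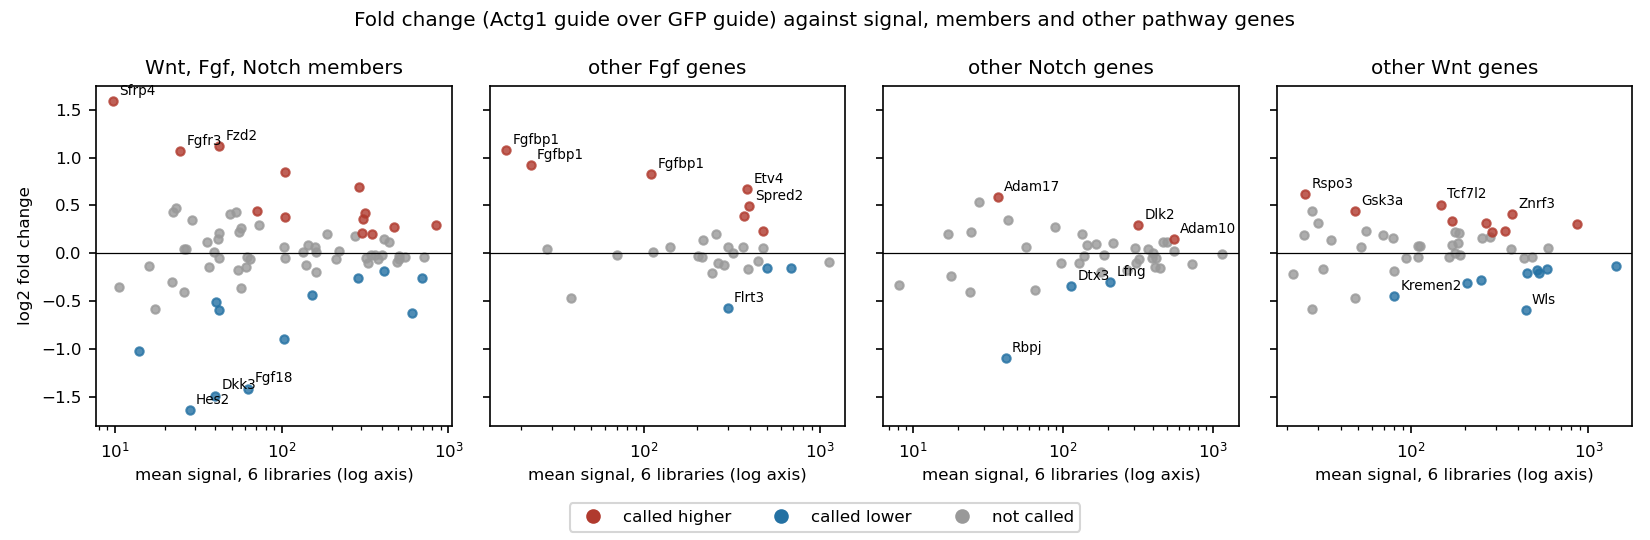
Log2 fold change (Actg1 guide over GFP guide) against mean signal over the 6 libraries on a log axis, for the tested member regions and for regions from the 3 lists of other pathway genes. Red and blue points were called higher and lower; among the members the largest falls, Hes2 (-1.64), Dkk3 (-1.49) and Fgf18 (-1.41), have a mean signal under 100.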

How the data were processed

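ATAC-seq covered 6 libraries of NIH/3T3 cells carrying Cas13d, 3 per guide, grouped by title. The submitters' processing notes name the build mm10 with DESeq2 1.36.0, DESeq, featureCounts, Picard 3.0.0, STAR 2.7.10a and Trimmomatic 0.39. For the roles of these, the peak caller and any Tn5 offset, nothing is stated in the labels. The deposited signal is a read count per region that the authors scaled and rounded, as empty or doubled whole numbers in each column show. Scaling and rounding blur small values, so the signal worth 1 read (0.807 to 1.35) was estimated from that unevenness. Per the file headers, a deposited fraction gives the share of each region inside its gene. The spread between GFP guide libraries 1 and 2 was within sampling noise (chi-square per region 1.00, p = 0.225, against 1.03 to 1.12 for other pairs), so their mean was used.

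Limma 3.58.1 in R 4.3.3, with a mean-variance trend, was fitted to log2(signal + 1), a scale that understates changes of low regions, over all 61327 regions passing the filter, and adjusted p-values are Benjamini-Hochberg over these. Through the trend, the SE of a region draws largely on regions of similar signal. It was 0.0675 at Axin2 and at Notch2, whose GFP guide SDs were 0.707 and 40.7. The fit was tested on simulated data. Named regions were the 4 largest calls and the strongest region of each role with the other regions of those genes, the 4 largest calls of each list and fixed readout genes; the other members named were added after their values were seen. One result that the rule names is not reported here and is not plotted. Members and lists were chosen with earlier results of these data known. Alternatives were 3 scalings, other pseudocounts and filters, 6 separate libraries with and without a replicate block, voom and leaving out each library.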

Additional observations from a re-analysis of the deposited data

How the results depend on the processing

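Of 39 called regions named in the text, 39 were kept with a pseudocount of 5 or 0.5, without a filter and with 6 separate libraries, 35 to 38 under the other scalings and voom, and 22 to 33 without one library; none changed direction. A filter of 30 left 34 of them to test, and 34 were kept. Hes2 (51, 33 and 42 against 21, 7 and 14) and Dkk3 at 4295 bp (58, 51 and 66 against 15, 22 and 27) passed it only through the GFP guide libraries. They were high there, so this setting is no check of their calls. Without one library the number of member regions called, 25 with all, was 14 to 25, newly called ones included (14 to 22 of the 25 themselves), with Wnt 9 to 15, Fgf 1 to 5, Notch 4 to 6 and the other pathway genes 15 to 37. All these lowest counts came without GFP guide replicate 3; Fgf had 3 without Actg1 guide replicate 1 and 3 without Actg1 guide replicate 2. Where 1 GFP guide sample is left, it is assumed to vary like the Actg1 guide. Libraries of the same replicate number were at most weakly linked. Their correlations of deviations were 0.025, 0.014 and 0.016, against -0.0165 to -0.000345 for other pairs between the groups. Each library correlated best with its own number, and the main fit did not pair them. With a replicate block on 6 separate libraries 29 member regions were called, 16 Wnt, 7 Fgf and 6 Notch, and 47 of the other pathway genes.

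Uncalled regions near 0 changed sign; the cause was not tested. With cyclic loess the log2 fold change was -0.0146 for Fgf17 at 5005 bp, -0.0103 for Fgf7 at 2907 bp and 0.00602 for Jag1 at 415 bp. With quantile normalization it was 0.00532 for Jag1 at 415 bp and 0.00283 for Spry4, and with voom 0.0156 for that Jag1 region. With 6 separate libraries Fgf7 at 2907 bp had -0.0106, with or without the replicate block. Leaving out one library gave -0.0783 to 0.00938 for Axin1 at 122 bp, -0.161 to 0.0927 for Dkk3 at 3582 bp, -0.0577 to 0.246 for Fgf17 at 5005 bp, -0.0402 to 0.238 for Fgf7 at 75 bp and -0.123 to 0.0903 for Fgf7 at 2907 bp. It gave -0.0851 to 0.0431 for Fgfr2, -0.0489 to 0.0663 for Fgfr3 at 273 bp, -0.0551 to 0.0791 for Hes1 at 2655 bp, -0.120 to 0.0229 for Hey1 at 76 bp, -0.0608 to 0.0260 for Jag1 at 415 bp and -0.0779 to 0.0189 for Spry4.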
